A study of Homo sapiens with 6 samples.

Results

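Doxycycline-treated A673/TR/shEF cells held more RNA of the Sprouty genes SPRY1 and SPRY2 than untreated cells, with smaller gains of SPRED1 and DUSP4. Of 10 feedback inhibitor genes of the ERK pathway, these 4 were called higher and none lower, against 4.51% and 3.37% of all tested genes. The 10 genes were chosen with earlier results of these data known. The set comprised SPRY1, SPRY2, SPRY4, SPRED1, SPRED2, DUSP1, DUSP4, DUSP5, DUSP6 and DUSP10, taken by symbol as negative feedback genes of signalling from receptor tyrosine kinases (RTK) to ERK, and these are 10 of the 26364 gene symbols in the expression table. All 10 passed the filter on low values, a mean of at least 0.5 FPKM (fragments scaled to the length of the transcript and to the size of the library) over the 6 libraries, as did 15504 symbols in all.

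RNAseq was performed on A673/TR/shEF, a derivative of the Ewing sarcoma cell line A673 that carries a doxycycline-inducible short hairpin RNA directed at the fusion oncogene EWSR1::FLI1. EWSR1::FLI1 high cells (n = 3) were left without doxycycline, and EWSR1::FLI1 low cells (n = 3) received doxycycline at 1 µg/mL for 72 h. All 6 cultures carried the hairpin construct and were grown in DMEM with fetal bovine serum under Blasticidine and Zeocin. No sample received doxycycline without the hairpin, so an effect of doxycycline itself and one of the knockdown cannot be told apart, and the labels describe the samples as clones in one place and as experiments in another, so the p-values measure only the spread between these samples.

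When a growth factor engages its receptor tyrosine kinase, RAS activates RAF, MEK and finally ERK, and ERK in turn raises transcription of genes whose products dampen the same route. Sprouty and SPRED proteins act upstream, on the steps between receptor and RAF, and SPRED proteins bring the RAS inactivator neurofibromin to the membrane. Dual-specificity phosphatases (DUSP) of the MAP kinase phosphatase group act at the end of the route, where they remove phosphate from ERK or from the related kinases JNK and p38. Because these genes answer to ERK, their RNA is often read as a gauge of pathway output, yet each also has other regulators. EWSR1::FLI1, which drives Ewing sarcoma, is a transcription factor whose FLI1 domain binds DNA with a GGAA core, and GGAA repeats are the sites where it is known to activate genes.

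FLI1, the gene of the fusion's 3′ part, for which reads of the fusion, of FLI1 itself and of the overlapping antisense gene SENCR were not separated here, measured 11.3, 12.7 and 14.2 FPKM without doxycycline and 2.91, 4.29 and 3.68 FPKM with it, here and throughout in the order of replicates 1, 2 and 3. It fell by 1.57 on the log2(FPKM + 1) scale (SE 0.18, adjusted p = 0.000676 in the limma fit across all genes), which is the check of the knockdown. All 9 Ewing sarcoma markers were detected in every library, and 7 of the 9 were called lower in the EWSR1::FLI1 low cells. Reads on genes numbered 6980361 to 16658933 per library. EWSR1::FLI1 low replicate 1 stood apart, with the smallest quality weight in limma (0.172 against 0.463 to 2.79 for the other libraries) and the lowest FLI1 level. The EWSR1::FLI1 low libraries also differed more among themselves, with a median SD over tested genes of 0.29 on the log2(FPKM + 1) scale against 0.14 in the EWSR1::FLI1 high libraries.

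The counts over the 10 genes are read against the share of all tested genes that passed the same limit. Since the 10 were chosen with earlier results known, these shares are descriptions. At an adjusted p under 0.01, SPRY1, SPRY2, SPRED1 and DUSP4 were higher in the EWSR1::FLI1 low cells, 4 of 10, where 4.51% of tested genes were called higher. None of the 10 was called lower, where 3.37% of tested genes were, and 0 of the 10 was lower at an unadjusted p under 0.05 or with limma-voom on recovered reads. SPRY1 and SPRY2 also passed a log2 fold change of 2.5, which 0.813% of tested genes did. Every EWSR1::FLI1 low library exceeded every EWSR1::FLI1 high library for 6 of the 10, the 4 called genes with SPRY4 and DUSP6, against 17.5% of tested genes. The fitted difference was positive for all 10 genes with a median of 0.99 on the log2(FPKM + 1) scale. Of the 15504 tested genes, 7012 had a positive difference, and the median over all 15504 was -0.05. In bulk RNA, a change in the number of cells that express a gene and a change in RNA per cell cannot be told apart, and a difference on the log2(FPKM + 1) scale understates the change of a gene at low FPKM.

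**Figure D1:**
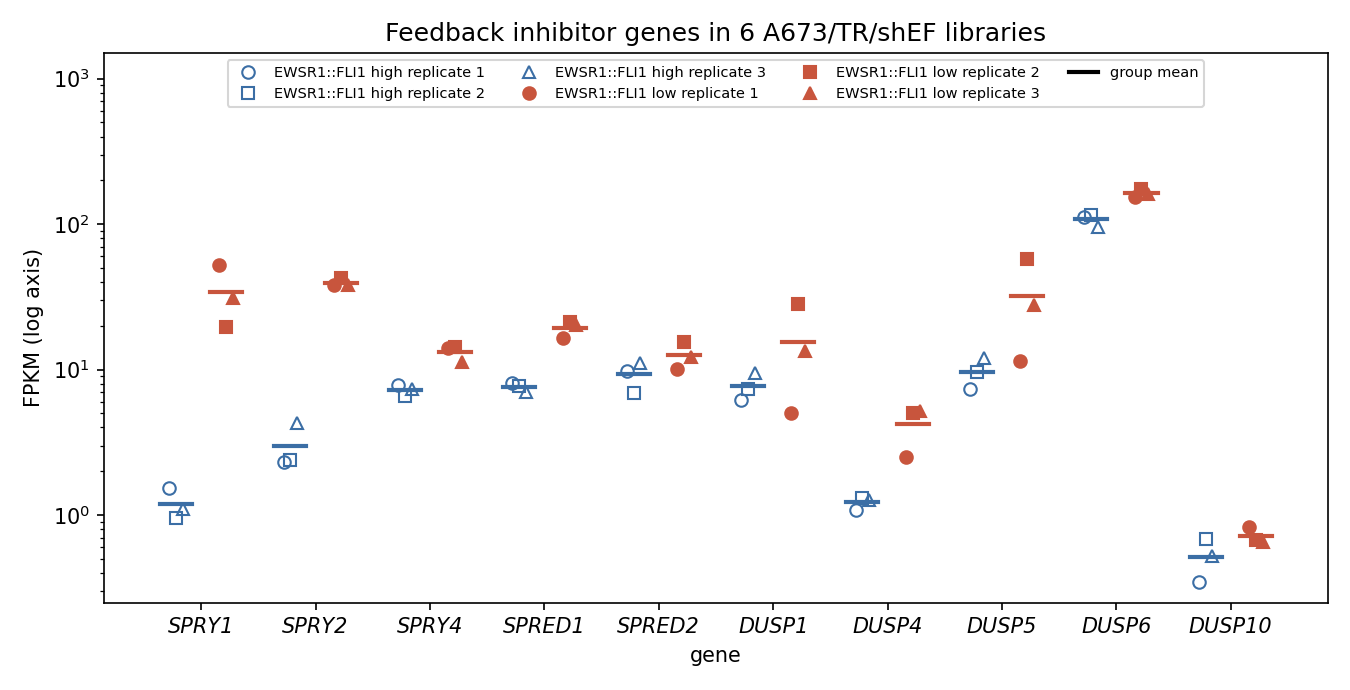
FPKM of the 10 feedback inhibitor genes (log axis) in each of the 3 EWSR1::FLI1 high libraries (open blue symbols) and the 3 EWSR1::FLI1 low libraries (filled red symbols), with symbol shape giving the replicate number and a line the group mean. SPRY1 and SPRY2 lie far apart between the groups, DUSP6 is the most abundant gene in all 6 libraries, and the low libraries spread widely for SPRY1, DUSP1 and DUSP5.

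The 250 bases upstream of the most upstream annotated start are shown for SPRY1, SPRY2 and SPRED1, 3 of the called genes, and for DUSP1, which varied most among the treated libraries. They were taken from RefSeq on GRCh38.p14 (chr4:123396545-123396794 on the plus strand, chr13:80341127-80341376 on the minus strand, chr15:38252586-38252835 on the plus strand and chr5:172771196-172771445 on the minus strand), and each reads 5′ to 3′ along its gene. Capitals mark the ETS core GGAA on either strand (GGAA or TTCC) in the first 3 sequences and the cyclic AMP response element TGACGTCA in DUSP1.
SPRY1: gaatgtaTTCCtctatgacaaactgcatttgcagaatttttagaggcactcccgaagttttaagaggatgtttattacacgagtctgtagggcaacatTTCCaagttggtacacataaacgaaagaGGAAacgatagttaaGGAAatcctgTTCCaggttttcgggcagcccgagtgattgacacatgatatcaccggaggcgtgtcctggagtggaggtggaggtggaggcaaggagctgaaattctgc
SPRY2: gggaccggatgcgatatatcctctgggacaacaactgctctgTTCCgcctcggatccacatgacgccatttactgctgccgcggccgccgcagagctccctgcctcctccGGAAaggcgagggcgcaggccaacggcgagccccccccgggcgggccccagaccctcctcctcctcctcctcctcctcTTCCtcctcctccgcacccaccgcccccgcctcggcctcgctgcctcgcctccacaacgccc
SPRED1: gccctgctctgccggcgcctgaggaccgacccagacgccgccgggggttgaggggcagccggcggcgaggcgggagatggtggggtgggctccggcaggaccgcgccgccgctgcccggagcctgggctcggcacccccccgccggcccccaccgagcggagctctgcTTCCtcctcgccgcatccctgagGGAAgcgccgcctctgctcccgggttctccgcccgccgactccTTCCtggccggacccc
DUSP1: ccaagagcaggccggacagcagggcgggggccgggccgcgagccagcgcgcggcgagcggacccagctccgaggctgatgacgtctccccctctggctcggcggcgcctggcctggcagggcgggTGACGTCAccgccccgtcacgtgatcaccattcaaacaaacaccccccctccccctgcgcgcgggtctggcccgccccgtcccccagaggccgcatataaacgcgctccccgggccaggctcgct
The SPRY1 window held 5 GGAA cores, those of SPRY2 and SPRED1 held 3 each, and that of DUSP1 held none. G and C made up 45.6% of the SPRY1 window and 70.4%, 78.4% and 74.4% of the SPRY2, SPRED1 and DUSP1 windows, beside a median of 58% over all windows of that length.

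Promoter windows were searched for 8 of the 10 genes, 13 windows in all, and 11 of these 13 held a GGAA core on either strand, as did 92.7% of the 35116 RefSeq windows of the same length. The extended ETS site CCGGAA was present in 1 window each of SPRY1 and SPRY2 and in 14.5% of all windows. The tandem GGAAGGAA, a GGAA core followed directly by another, was in none of the 13 and in 3.06% of all windows. GGAA repeats outside these windows were not searched. Neither the AP-1 site TGACTCA (4.2% of all windows) nor the CArG box of serum response factor (1.16%) occurred in any of the 13, and TGACGTCA occurred in the DUSP1 window and in 1.65% of all windows. Both strands were searched, and CCGGAA and GGAAGGAA each contain GGAA. DUSP5 had no entry, and the called gene DUSP4, which lies on chr8, was left out of the search. The shares over all windows were taken without a filter on chromosome. These counts describe letters in the windows and no binding.

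SPRY1 (ENSG00000164056, GRCh37 chr4:124317950-124324915, plus strand), which restrains signalling below FGF and other growth factor receptors, measured 1.54, 0.949 and 1.10 FPKM without doxycycline and 52.1, 19.5 and 31.1 FPKM with it. The groups lay far apart, and the treated libraries still differed among themselves by 2.67 times from lowest to highest. Group means were 1.20 ± 0.304 and 34.3 ± 16.5 FPKM (SD, n = 3 each), 28.6-fold apart, and the difference of 3.91 on the log2(FPKM + 1) scale (SE 0.31, adjusted p = 0.000136 by limma) ranked 23 among all tested genes. The untreated values rested on 23 to 49 recovered reads and the treated values on 487 to 1476. Without the filter on low values, the SPRY1 call was lost at an adjusted p of 0.0157, the highest over its alternatives.

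SPRY2 (ENSG00000136158, GRCh37 chr13:80910111-80915261, minus strand), a docking protein for the ubiquitin ligase CBL and the adaptor GRB2, was at 2.30, 2.38 and 4.28 FPKM without doxycycline and at 38.4, 42.5 and 37.9 FPKM with it. The 3 treated libraries were nearly level, and 6.52% of tested genes had a smaller SD among them than SPRY2, against 93.4% for SPRY1. Among the untreated libraries, where replicate 3 stood highest, 94.1% of tested genes had a smaller SD than SPRY2. The means of 2.99 ± 1.12 and 39.6 ± 2.54 FPKM (SD, n = 3 each) were 13.3-fold apart, a difference of 3.38 on the log2(FPKM + 1) scale (SE 0.22, adjusted p = 5.36e-05 by limma). SPRY2 kept its call under every alternative tried.

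SPRY4 (ENSG00000187678, GRCh37 chr5:141689992-141706020, minus strand), the most abundant Sprouty gene of the untreated cells, was at 7.79, 6.53 and 7.40 FPKM without doxycycline and at 14, 14.3 and 11.3 FPKM with it. All treated libraries exceeded all untreated ones, but the difference of 0.78 on the log2(FPKM + 1) scale (SE 0.17, 95% interval 0.39 to 1.17) did not pass the limit (adjusted p = 0.0154 by limma). The means were 7.24 ± 0.642 and 13.2 ± 1.63 FPKM (SD, n = 3 each). SPRY4-IT1, a transcript from within the SPRY4 locus, was at 0.749 to 1.38 FPKM without and 1.49 to 3.01 FPKM with doxycycline, on 4 to 17 reads per library, and was not called (adjusted p = 0.07). Whether counting used strand is not given in the sources used here, so reads of SPRY4 and of the antisense gene SPRY4-AS1, which overlaps it, cannot be told apart. The same holds for DUSP1 and DUSP6, where antisense long non-coding genes overlap 3100 and 1487 bases, and a long non-coding gene on the same strand overlaps 6986 bases of SPRED2.

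The summed FPKM of SPRY1, SPRY2 and SPRY4 was 11.6, 9.86 and 12.8 in the EWSR1::FLI1 high libraries and 104, 76.3 and 80.4 in the EWSR1::FLI1 low libraries, a ratio of means of 7.62. The makeup of that sum differed between the groups as well as its size. SPRY4 made up 63.7% ± 5.06 of Sprouty FPKM without doxycycline and 15.4% ± 2.90 with it, while SPRY1 made up 10.5% ± 2.41 and 38.1% ± 12.2 and SPRY2 25.8% ± 7.0 and 46.5% ± 9.50 (SD, n = 3 each). The ratio of SPRY1 to SPRY2 was 0.667, 0.399 and 0.258 in the untreated libraries and 1.36, 0.459 and 0.821 in the treated ones, so only in EWSR1::FLI1 low replicate 1 was SPRY1 above SPRY2. The fourth Sprouty gene, SPRY3, stayed below the filter at 0.254 to 0.572 FPKM.

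**Figure D2:**
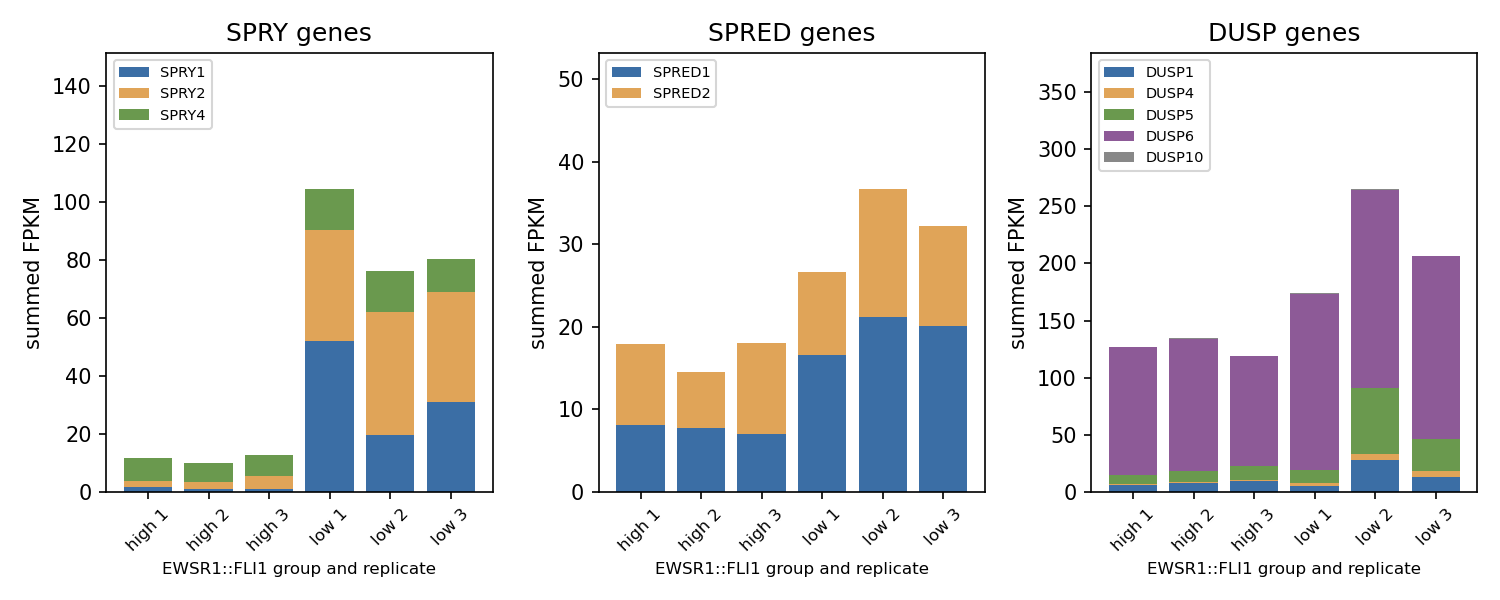
Summed FPKM of the Sprouty, SPRED and DUSP genes in each library (bars from 0, stacked by gene, 1 bar per library, with a separate axis scale for each family). The Sprouty bars of the EWSR1::FLI1 low libraries reach 76.3 to 104 FPKM against 9.86 to 12.8 FPKM in the EWSR1::FLI1 high libraries, and DUSP6 fills most of every DUSP bar.

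SPRED1 (ENSG00000166068, GRCh37 chr15:38545037-38649450, plus strand), the SPRED gene mutated in Legius syndrome, was at 8.09, 7.68 and 6.98 FPKM without doxycycline and at 16.6, 21.1 and 20.1 FPKM with it. The groups did not overlap and both were tight. Means were 7.58 ± 0.564 and 19.3 ± 2.39 FPKM (SD, n = 3 each), and the difference of 1.24 on the log2(FPKM + 1) scale (SE 0.17) was called (adjusted p = 0.00187 by limma). The SPRED1 call was lost when any 1 of the EWSR1::FLI1 high replicates was left out, with differences of at least 1.17 in each fit that left out 1 library and adjusted p-values up to 0.0172, and without the filter on low values (0.0145).

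SPRED2 (ENSG00000198369, GRCh37 chr2:65537985-65659771, minus strand), which like SPRED1 binds neurofibromin, was at 9.82, 6.85 and 11.1 FPKM without doxycycline and at 10.1, 15.5 and 12.1 FPKM with it. The groups overlapped, since EWSR1::FLI1 low replicate 1 lay below EWSR1::FLI1 high replicate 3. The difference of 0.41 on the log2(FPKM + 1) scale had a 95% interval of -0.11 to 0.93 (adjusted p = 0.243 by limma). It was 0.23 without EWSR1::FLI1 high replicate 2, 0.26 without EWSR1::FLI1 low replicate 2 and 0.69 with array quality weights, with adjusted p-values of 0.0127 to 0.605 over all alternatives. SPRED1 made up 45.5% ± 7.14 of the SPRED FPKM of untreated and 60.7% ± 2.67 of that of treated libraries (SD, n = 3 each), and the SPRED sum was 16.8 ± 2.0 and 31.9 ± 5.0 FPKM. SPRED3, the remaining SPRED gene, had a difference of 0.28 and was not called (adjusted p = 0.359), with 0 calls by limma-voom and an unadjusted p over 0.05.

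DUSP6 (ENSG00000139318, GRCh37 chr12:89741012-89746278, minus strand), the cytoplasmic phosphatase specific for ERK, stood at 112, 116 and 96.0 FPKM in untreated and at 154, 173 and 160 FPKM in treated libraries. Its groups did not overlap, and 96.1% of tested genes had a lower mean in untreated cells and 98.4% in treated cells. The means of 107.9 ± 10.5 and 162.6 ± 9.68 FPKM (SD, n = 3 each) were 1.51-fold apart, and the difference of 0.59 on the log2(FPKM + 1) scale (SE 0.16, 95% interval 0.22 to 0.96) did not pass the limit (adjusted p = 0.0358 by limma). Leaving out EWSR1::FLI1 low replicate 1 gave 0.63 with an adjusted p of 0.00993, within a range of 0.00993 to 0.168 over the fits that left out 1 library.

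DUSP5 (ENSG00000138166, GRCh37 chr10:112257665-112271291, plus strand), the nuclear phosphatase specific for ERK, was at 7.31, 9.68 and 12.1 FPKM without doxycycline and at 11.4, 57.6 and 27.6 FPKM with it. Replicate 1 of the treated cells lay inside the untreated range and the other two above it. The means were 9.68 ± 2.37 and 32.2 ± 23.5 FPKM (SD, n = 3 each), the difference was 1.39 on the log2(FPKM + 1) scale (SE 0.48, 95% interval 0.30 to 2.47), and it was not called (adjusted p = 0.0743 by limma). Without EWSR1::FLI1 low replicate 1 the difference was 1.96 and passed the limit (adjusted p = 0.00393), and without EWSR1::FLI1 low replicate 2 it was 0.84 and did not, in a range of adjusted p from 0.00393 to 0.188 over the fits that left out 1 library.

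DUSP1 (ENSG00000120129, GRCh37 chr5:172195099-172198198, minus strand), a nuclear phosphatase of p38, JNK and ERK that stress and serum induce quickly, was at 6.17, 7.38 and 9.44 FPKM without doxycycline and at 5.06, 28.3 and 13.3 FPKM with it. The treated libraries included both the lowest and the highest of the 6 values, 5.60 times apart. The difference of 0.67 on the log2(FPKM + 1) scale (SE 0.48, 95% interval -0.41 to 1.76) was not called (adjusted p = 0.36 by limma), and an exact permutation test of the FPKM values gave p = 0.4 (two-sided, smallest possible p = 0.1). Leaving out EWSR1::FLI1 low replicate 1 gave 1.26 (adjusted p = 0.0204) and leaving out EWSR1::FLI1 low replicate 2 gave 0.12 (adjusted p = 0.858), the ends of the range over the fits that left out 1 library.

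DUSP4 (ENSG00000120875, GRCh37 chr8:29190581-29208201, minus strand), a nuclear phosphatase of ERK and JNK, was at 1.09, 1.32 and 1.27 FPKM without doxycycline and at 2.5, 5.07 and 5.18 FPKM with it. The groups did not overlap, and EWSR1::FLI1 low replicate 1 lay nearest to the untreated libraries. Means of 1.22 ± 0.119 and 4.25 ± 1.52 FPKM (SD, n = 3 each) were 3.47-fold apart, and the difference of 1.19 on the log2(FPKM + 1) scale (SE 0.23) was called by a narrow margin (adjusted p = 0.00876 by limma). The DUSP4 call was lost in 5 of the 6 fits that left out 1 library, all but the one without EWSR1::FLI1 low replicate 1, with differences of 1.05 to 1.46 and adjusted p-values of 0.000519 to 0.0385 over the 6.

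DUSP10 (ENSG00000143507, GRCh37 chr1:221874766-221915431, minus strand), a phosphatase that prefers p38 and JNK to ERK, was the least abundant of the 10 genes, at 0.348, 0.687 and 0.519 FPKM without doxycycline and 0.821, 0.668 and 0.656 FPKM with it. The groups overlapped, on only 10 to 28 reads per library, where 3 reads correspond to 0.0703 to 0.141 FPKM. A difference between the groups was not detectable at this depth (0.18 on the log2(FPKM + 1) scale, 95% interval -0.20 to 0.56, adjusted p = 0.488 by limma). It was 0.10 without EWSR1::FLI1 high replicate 1, 0.07 with quantile normalization, 0.43 with a pseudocount of 0.1 and 0.50 with limma-voom, with adjusted p-values of 0.395 to 0.818 over all alternatives.

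**Figure D3:**
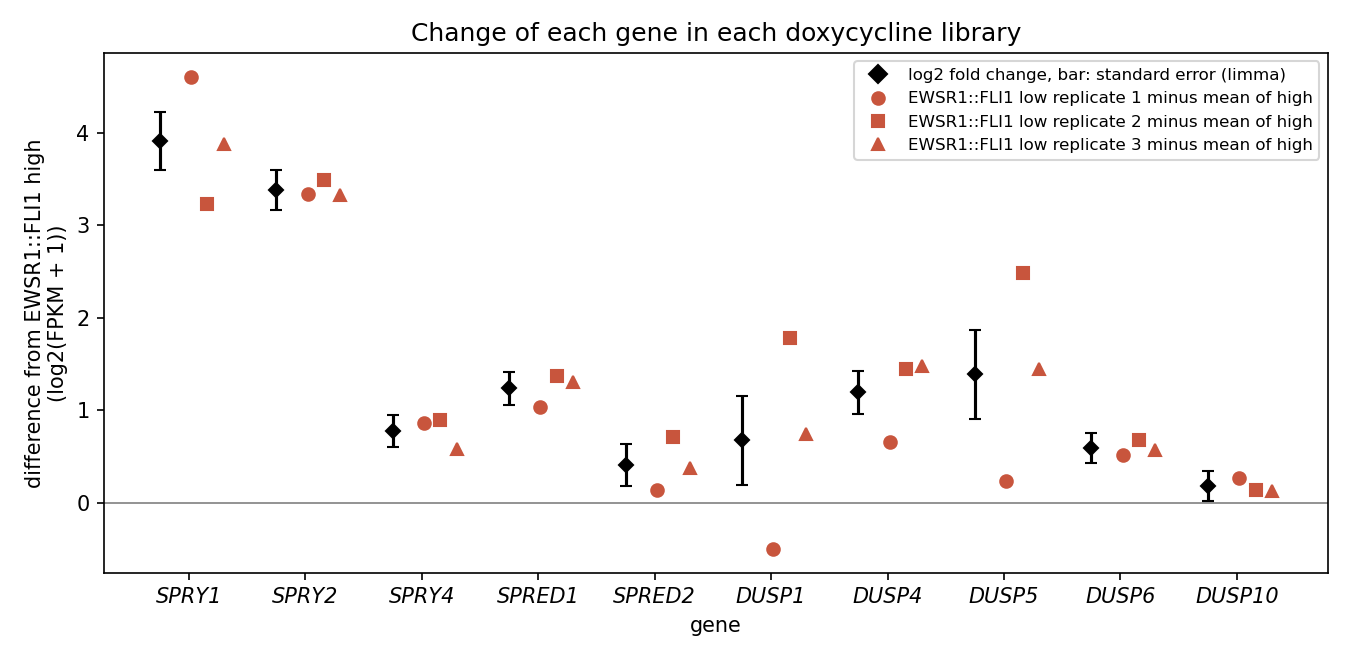
Difference from EWSR1::FLI1 high cells on the log2(FPKM + 1) scale for the 10 genes, with the limma estimate as a black diamond, its standard error as a bar, and each EWSR1::FLI1 low library minus the mean of the EWSR1::FLI1 high libraries as a red symbol. The 3 libraries nearly coincide for SPRY2 and DUSP6, whereas those of DUSP1 run from -0.50 in replicate 1 to 1.78 in replicate 2, the only value below 0 being that of DUSP1 in replicate 1.

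The order of the mean levels, which FPKM allows since it is per length, differed between the groups in its middle. DUSP6 stood first and DUSP10 last in both, each without overlap with its neighbour. In the EWSR1::FLI1 high cells DUSP5, SPRED2, DUSP1, SPRED1 and SPRY4 followed DUSP6 at mean levels of 7.24 to 9.68 FPKM, each overlapping the next, with SPRY2 clearly below them and then DUSP4 and SPRY1, which overlapped. In the EWSR1::FLI1 low cells SPRY2 and SPRY1 came directly after DUSP6, followed by DUSP5, SPRED1, DUSP1, SPRY4 and SPRED2, and each neighbour in that run overlapped the next. DUSP4 lay below SPRED2 without overlap. SPRY1 thus moved from the 9th to the 3rd place and SPRY2 from the 7th to the 2nd.

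The treated libraries did not order the 10 genes alike. SPRED1, SPRED2, DUSP1, DUSP5 and DUSP6 were highest in EWSR1::FLI1 low replicate 2 and lowest in replicate 1, 5 of the 10 genes (50%), an order held by 20.5% of tested genes and by FLI1 itself. Among the immediate early genes, which serum and stress induce within minutes, 6 of 13 (46.2%) had that order, namely JUN, JUNB, IER2, IER3, ATF3 and KLF6. SPRY1 had the reverse extremes, highest in replicate 1 and lowest in replicate 2, the only one of the 10 to do so, where 13.0% of tested genes did. The part of the immediate early genes and of EWSR1::FLI1 low replicate 1 in the spread of DUSP1 and DUSP5 was not tested. These 6 names and orders were chosen after their values were seen.

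Around the 10 genes, the core of the route itself showed no called change. Of 18 adaptors, RAS, RAF, MEK and ERK genes, all 18 were tested and 0 passed an adjusted p of 0.01 in the limma fit, with a median difference of -0.09 on the log2(FPKM + 1) scale. At an unadjusted p under 0.05, 1 of the 18 was higher and 1 lower, and limma-voom on recovered reads called none. Of the JNK and p38 kinases, 10 of 12 were tested, 0 were called by either tool, 0 were higher and 1 lower at an unadjusted p under 0.05, and the median difference was -0.16. Of the binding partners of Sprouty and SPRED proteins, 10 of 10 were tested, and 1 was called, the caveolar protein CAV1, which fell from 291 ± 16.9 to 137 ± 34.7 FPKM (SD, n = 3 each, adjusted p = 0.00828). When single libraries were left out, the CAV1 call held in 1 of 6 fits, that without EWSR1::FLI1 low replicate 1 (adjusted p = 0.00104 to 0.0481 over the 6), and was lost without the filter on low values (0.0723).

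Among phosphatases outside the 10, no gene was called higher. Of the 5 other MAP kinase phosphatases, 3 passed the filter and 0 were called by limma or limma-voom, with 1 higher at an unadjusted p under 0.05. Of the 12 other dual-specificity phosphatases, 10 were tested and 2 were called, both lower. DUSP26 fell from 4.78 ± 1.16 to 1.20 ± 0.184 FPKM (SD, n = 3 each, adjusted p = 0.00166 by limma) and DUSP19 from 3.42 ± 0.421 to 1.08 ± 0.216 FPKM (adjusted p = 0.00266). The DUSP19 call was lost without any 1 of the EWSR1::FLI1 high replicates (adjusted p up to 0.0184) and that of DUSP26 without EWSR1::FLI1 high replicate 3 (0.01003), and both were lost without the filter on low values (0.0403 and 0.0383). DUSP2, a nuclear phosphatase named here after its value was seen, was at 0.653 ± 0.106 and 2.09 ± 1.02 FPKM and was not called (adjusted p = 0.0392).

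ERRFI1, which encodes the feedback inhibitor MIG6 of the EGF receptor family, rose from 41.8 ± 2.07 to 300.5 ± 120.5 FPKM (SD, n = 3 each), a difference of 2.74 on the log2(FPKM + 1) scale (SE 0.28, adjusted p = 0.000356 by limma), and was the 1 gene called among other inhibitors of the route. Of these 13 genes, 12 were tested, their median difference was 0.14, and limma-voom on recovered reads called 3 of them higher. Of 11 genes used as readouts of ERK output, 11 were tested, 1 was called higher and 1 lower, and the median difference was -0.13. At an unadjusted p under 0.05, 3 of them were higher and 1 lower, and limma-voom called 2 higher and 1 lower. PHLDA1, a pleckstrin homology protein gene, rose from 3.58 ± 0.368 to 49.1 ± 16.5 FPKM (adjusted p = 0.000105), and CCND1, which encodes cyclin D1 and is also on the list of Ewing sarcoma markers, fell from 385 ± 9.41 to 109 ± 35.6 FPKM (adjusted p = 0.00123). ETV4 and ETV5, ETS factors that respond to ERK and that were named after their values were seen, differed by -0.13 and -0.30 and were not called. Of the 13 tested immediate early genes, limma called 0, with a median of 0.71, 8 higher at an unadjusted p under 0.05 and a lowest adjusted p of 0.011, for IER3, the 1 gene that limma-voom called.

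Growth factor receptors, the inputs of the route, held the largest share of called genes among the pathway lists. Of 16 receptors, 15 were tested, 6 were called higher and none lower, against 4.51% and 3.37% of all tested genes. The median difference was 0.76 on the log2(FPKM + 1) scale. At an unadjusted p under 0.05, 10 receptors were higher and 2 lower, and limma-voom called 7 higher and 0 lower. PDGFRA, a receptor of platelet-derived growth factors, was at 1.06, 0.649 and 0.785 FPKM without doxycycline and at 23.2, 9.18 and 17.5 FPKM with it. Its difference was 3.18 (adjusted p = 0.000242 by limma). PDGFRA had the same order of replicates in both groups as SPRY1, a match picked out after its values were seen. In the treated libraries, 13% of tested genes had that order. The VEGF receptor genes KDR and FLT1 differed by 2.52 (adjusted p = 0.000108) and 1.43 (adjusted p = 0.00261), and AXL, the receptor of GAS6, by 2.25 (adjusted p = 0.0019). Of 21 ligands, 17 were tested and 3 were called higher, HGF (1.74, adjusted p = 0.000622), PDGFA (1.61, adjusted p = 0.00555) and FGF1 (1.58, adjusted p = 0.00206), with a list median of 1.13. At an unadjusted p under 0.05, 8 ligands were higher and 3 lower, and limma-voom called 4 higher and 0 lower. Of the 13 called genes named from the pathway lists, 5 kept their call in every fit that left out 1 library, namely ERRFI1, PHLDA1, PDGFRA, KDR and HGF. None of the 13 kept it without the filter on low values, and all 13 kept their direction in every alternative. Calls were lost without EWSR1::FLI1 high replicate 2 for CCND1, AXL, FLT1, PDGFA and FGF1, without high replicate 1 for FLT1 and PDGFA, without high replicate 3 for AXL, PDGFA and FGF1, and without low replicate 3 for FLT1, PDGFA and FGF1, with adjusted p-values up to 0.0302.

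**Figure D4:**
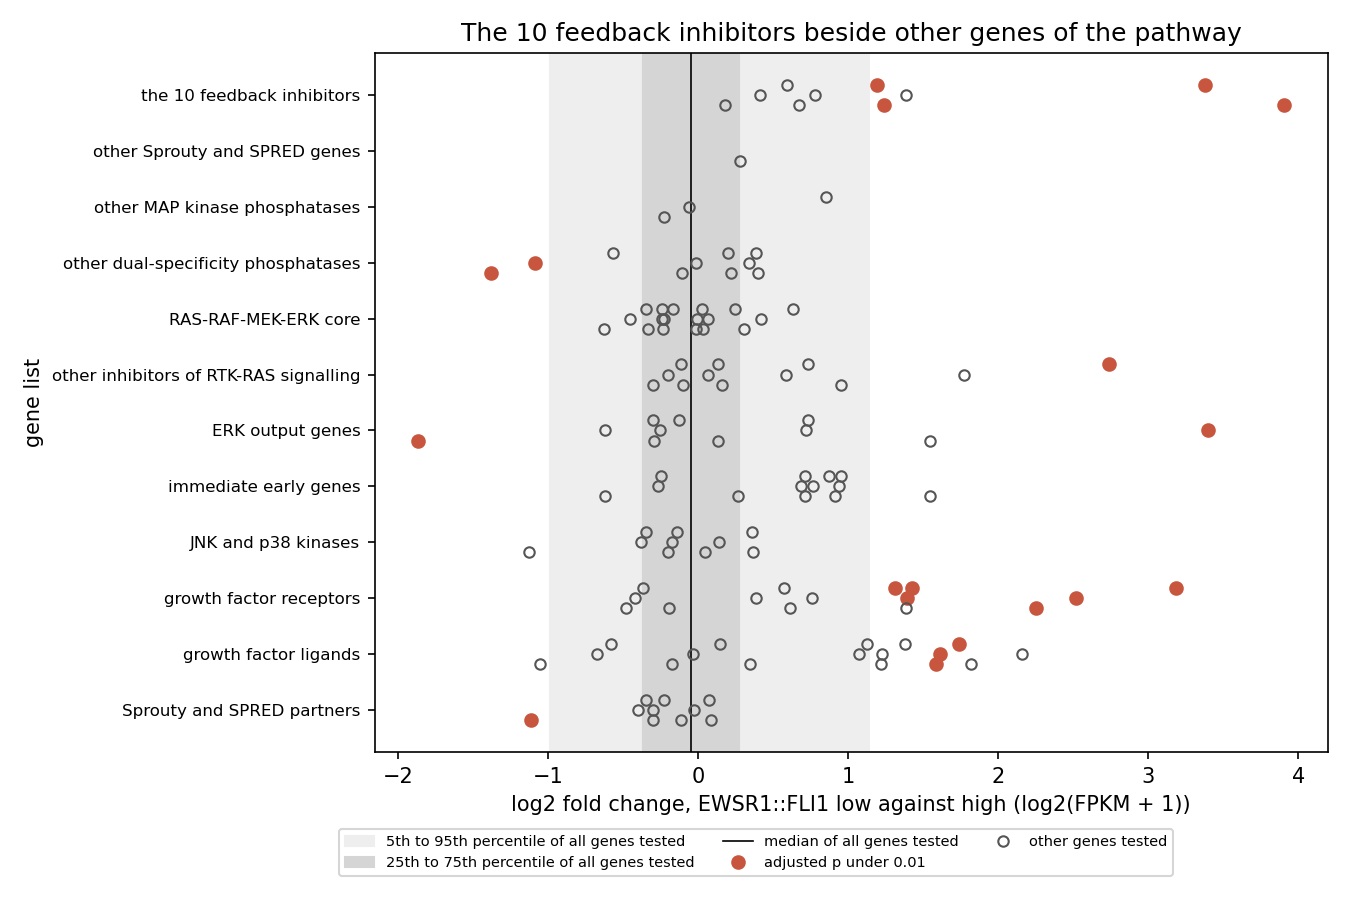
Difference between EWSR1::FLI1 low and high cells on the log2(FPKM + 1) scale for each tested gene (points) of the 10 feedback inhibitors and of the pathway lists (rows), filled where the adjusted p was under 0.01, over bands of the 5th to 95th and 25th to 75th percentile of all tested genes. No point of the core genes is filled, and the 10 feedback inhibitors lie between 0.18 and 3.91.

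The genes whose levels followed SPRY1 most closely over the 6 libraries were CRISPLD2 (Pearson r = 0.999), PDGFRA (0.998) and RBMS3 (0.997), on log2(FPKM + 1) values. All 3 were called higher in the EWSR1::FLI1 low cells, by 1.49, 3.18 and 1.86. Most of the spread of SPRY1 lies between the groups, so genes picked this way differ between them by selection. For DUSP10, the gene of the 10 with the smallest difference, the closest were LOC642236 (r = 0.957), RWDD3 (0.953) and ENO4 (0.950), none of them called. The 6 points of each correlation share their libraries and depth, and the genes were picked as the highest of all tested, so these values are descriptions.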

How the data were processed

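Total RNA of 6 A673/TR/shEF cultures was depleted of ribosomal RNA, made into ScriptSeq v2 libraries and sequenced. The authors mapped reads to GRCh37 with STAR 2.5.0b, estimated abundance with Cufflinks 2.2.1 and compared groups with DESeq2 1.6.3, and the submitters' processing notes also name bedtools 2.17.0. The authors deposited FPKM per gene and library, already scaled between libraries by median ratios, and a mean normalized read signal per gene over all libraries. The deposited columns of the authors' own comparison (fold changes and p-values) were not used. From FPKM and the mean signal, whole reads were recovered within 0.1 of a whole number for 100% of values above 0, which gave the depth per library.

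Genes averaging 0.5 FPKM or more entered a limma 3.58.1 fit in R 4.3.3 (lmFit, then eBayes with its trend option) of log2(FPKM + 1), in which the 3 treated libraries were compared with the 3 untreated ones without a covariate, with Benjamini-Hochberg adjustment over all tested genes. A call was an adjusted p under 0.01. Single values were compared with two-sided exact permutation tests, in which 3 against 3 libraries cannot go below p = 0.1. The fit was checked on simulated data. Alternatives were another pseudocount (0.1), no filter, a filter at a mean of 1 FPKM, median-ratio or quantile normalization, no trend, array quality weights, limma-voom on recovered reads, a replicate block, leaving out each library and, chosen after seeing the data, scaling by total reads. Median-ratio scaling could hardly change a result, since its factor was 1.017 for every library. Intervals and read floors cover counting or library error only.

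Named were the 10 genes, FLI1 and EWSR1, up to 4 called genes per list with the largest differences, the 3 genes most correlated with the members of the largest and smallest difference, and hyphenated symbols of the 10. For EWSR1, reads of the fusion's 5′ part, of EWSR1 itself and of the overlapping gene RHBDD3 were not separated here. It differed by -0.50 and was not called (adjusted p = 0.159 by limma). Every treated library lay below every untreated one (47.2 to 78.0 against 79.5 to 107 FPKM). The difference was -0.29 without EWSR1::FLI1 low replicate 1 and -0.30 with quantile normalization (adjusted p = 0.0324 to 0.429 over its alternatives). The members and lists were chosen with earlier results of these data known. Promoter windows came from RefSeq (GRCh38.p14) and gene positions from GENCODE on GRCh37, and no coordinate was converted.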

Additional observations from a re-analysis of the deposited data

How the results depend on the processing

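None of the 10 genes changed direction under any alternative. Without the filter on low values, SPRY1 (3.91, adjusted p = 0.0157), SPRED1 (1.24, 0.0145) and DUSP4 (1.19, 0.0879) lost their calls, leaving 1 of the 10 called and 1 past 2.5, with 89 genes higher and 35 lower in all. Array quality weights were 0.172, 2.79 and 0.463 for EWSR1::FLI1 low replicates 1, 2 and 3, so replicate 2 dominated the treated mean. With these weights 8 of the 10 were called, while 2488 of the 15504 tested genes were higher and 2257 lower. The added calls were SPRY4 (0.85, adjusted p = 0.000607), DUSP1 (1.6, 0.00166), DUSP5 (2.31, 0.000235) and DUSP6 (0.62, 0.00131). For DUSP1 and DUSP5, replicate 2 was the highest treated library. Quantile normalization moved DUSP4 out (1.05, adjusted p = 0.0132) and DUSP6 in (0.80, 0.00943), with 1000 genes lower. Genes called lower numbered 784 with limma-voom, and scaling by total reads, chosen after seeing the data, gave 1076 higher and 956 lower, with 4 of the 10 called in both. Leaving out 1 library gave SPRED1 1.17 to 1.34, DUSP4 1.05 to 1.46, DUSP5 0.84 to 1.96 and DUSP6 0.51 to 0.64, with 2 to 6 of the 10 called and 287 to 1452 genes higher and 156 to 726 lower. The cause of these changes was not tested. Same-numbered libraries had correlated deviations of 0.27, 0.09 and 0.12, and differently numbered ones had -0.29 to 0.19. The same-numbered values were not all above 0.1, so the numbers were not taken as pairs, though these values do not settle whether libraries were paired. A replicate block gave 916 genes higher and 786 lower with the same 4 of the 10 called. DUSP10 rested on 10 to 28 reads per library and SPRY4-IT1 on 4 to 17.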
